A study of Mus musculus with 70 samples.

Results

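Some stretches of the mouse genome gave no reads at all in the livers of many mice after capture of methylated DNA. The bins described here were chosen by their reads: of 354239 autosomal bins of 150 bp in the deposited matrix (368300 with chromosome X and the mitochondrial genome), 6598 (1.86%) had 0 reads in at least 10 of 69 mice. They formed 3292 runs of touching bins. By contrast, 338224 autosomal bins (95.5%) had reads in each of the 69 mice, and 9417 had 1 to 9 mice without reads.

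The matrix held 1 MBD-seq library per mouse, from liver DNA of 10 inbred BXD strains (BXD9, BXD40, BXD48, BXD48a, BXD65, BXD65b, BXD73, BXD73b, BXD79 and BXD102) and of the F1 crosses B6D2F1 and D2B6F1, with no transgene or engineered allele named for any of them. All 12 groups had mice on standard chow (CD), 55 in all, and BXD48, BXD48a, BXD65, BXD73 and BXD73b also had mice on a high-fat diet (HFD, 60% of calories from fat), 14 in all. Of the 69 mice 66 were females and 3 were males, and one further BXD65 mouse on HFD, which the authors set aside, entered no count. The age given with the samples ran from 30 to 488 days and is the baseline age of the study, while the age at collection was not used here. There were 3 to 8 mice per inbred strain, 5 B6D2F1 and 4 D2B6F1.

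BXD strains descend from a cross of C57BL/6J and DBA/2J, and inbreeding has fixed 1 of the parental alleles at nearly every place, so that each strain is a mosaic of both genomes. An F1 mouse carries 1 chromosome of each parent throughout, and the name gives the mother before the father. The mouse reference genome is that of C57BL/6J. Methyl-CpG binding protein captures DNA fragments by their methylated CpGs, and much of the methylated mouse genome consists of transposon copies, which the reference marks by soft masking. Copies of mobile elements such as LTR retrotransposons and LINEs that are present in one inbred strain and absent from another are a known source of structural differences among mouse strains. A bin without reads holds DNA that is missing, not methylated, or so different or so repeated that its reads are not aligned there, and these cannot be told apart from these data.

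**Figure D1:**
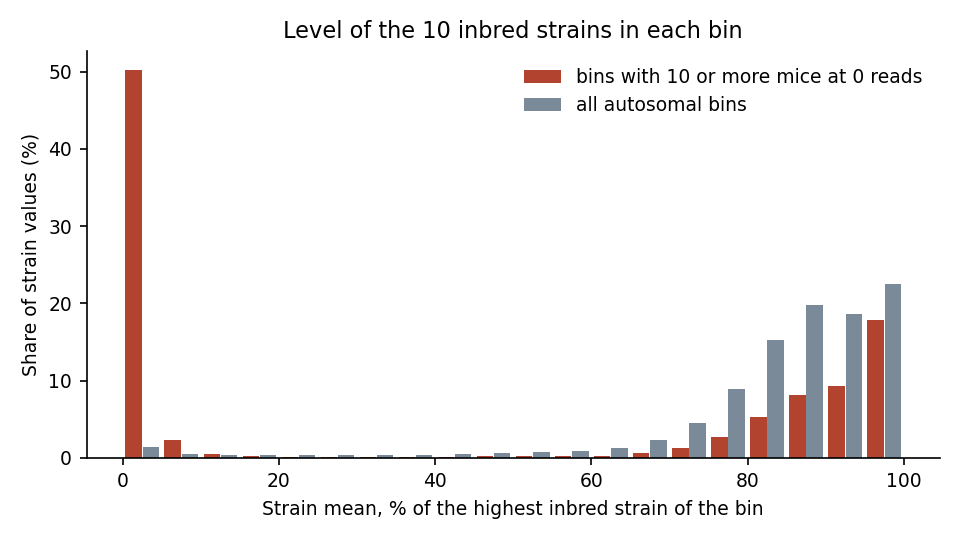
Mean level of each of the 10 inbred strains in a bin, as a percentage of the strain with the highest mean in that bin (x axis), against the share of strain values (y axis, %), for the selected bins and for all autosomal bins. In the selected bins 52.6% of the strain values lay under 10% of the highest strain and 45.9% at 50% or more, with 1.58% between.

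The working name of these bins, bins without reads in whole strains, held only in part when taken literally. At least 1 inbred strain had 0 reads in each of its mice in 2879 bins (43.6%), of which 1720 had 1 such strain and 1159 had 2 or more, up to 7. In 3719 bins no inbred strain was wholly without reads, because 1 or a few reads fell in some of its mice. Only 22 bins (0.333%) had each of the 12 groups either wholly without reads or with reads in each mouse. The strain means were nevertheless split widely, as the plot of strain levels shows. A strain was therefore counted as low in a bin where its mean was under 25% of that of the highest strain, and as high otherwise, a limit that was chosen after the values had been seen. Of 65980 strain values, 35269 were low and 30711 were high. Since these states come from the reads that chose the bins, they are a description and were not tested.

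The sequences that recur among the runs show what many of these bins hold. The 5 stretches of 31 bases that were shared by the most runs, each taken after leaving out the runs that held an earlier one, were found in 549 of the 3292 runs (16.7%). One member bin is given for each, from the reference genome GRCm38.p6 (RefSeq), 5′ to 3′ on the strand named, with the shared 31 bases in capitals.
repeat 1, chr12:20645401-20645550, minus strand, intron of LOC108167368: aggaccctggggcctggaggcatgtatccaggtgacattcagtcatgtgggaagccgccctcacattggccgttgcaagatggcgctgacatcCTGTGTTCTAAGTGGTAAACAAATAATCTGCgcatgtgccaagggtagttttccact
repeat 2, chr11:85061701-85061850, minus strand, intron of Usp32: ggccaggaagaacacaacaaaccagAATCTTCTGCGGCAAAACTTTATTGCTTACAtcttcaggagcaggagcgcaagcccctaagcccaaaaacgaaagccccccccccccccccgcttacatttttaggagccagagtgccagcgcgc
repeat 3, chr13:69882601-69882750, plus strand, intergenic near Med10: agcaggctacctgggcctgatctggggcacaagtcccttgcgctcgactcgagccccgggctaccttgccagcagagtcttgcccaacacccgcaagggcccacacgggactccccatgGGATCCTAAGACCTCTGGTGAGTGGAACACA
repeat 4, chr7:31317451-31317600, minus strand, intergenic near Scgb2b2: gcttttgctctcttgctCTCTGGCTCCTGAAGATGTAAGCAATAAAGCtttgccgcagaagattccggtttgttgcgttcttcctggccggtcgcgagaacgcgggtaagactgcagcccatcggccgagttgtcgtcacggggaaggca
repeat 5, chr4:79143001-79143150, plus strand, intergenic near Ptprd: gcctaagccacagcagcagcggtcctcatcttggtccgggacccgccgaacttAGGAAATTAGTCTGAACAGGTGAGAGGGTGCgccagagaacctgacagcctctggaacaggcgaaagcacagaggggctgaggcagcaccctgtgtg

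Each of the 5 has many copies in the reference. The shared bases of repeat 1 had 4936 copies in the genome and lay in 2368 deposited autosomal bins, of which 196 (8.28%) were among the selected bins. Repeat 2 had 2663 copies and lay in 1596 autosomal bins, 175 of them selected (11%). Repeat 4 had 1809 copies and 99 of its 1056 autosomal bins were selected (9.38%). Repeat 3 had 87 of 1745 bins selected (4.99%), and repeat 5 had 60 of 2871 (2.09%). These shares are a description, since the repeats were picked for the number of selected runs that hold them. Over all autosomal bins 1.86% were selected, over masked bins 4.91% and over bins with at least 50% repeated stretches of 31 bases 5.66%. The example bins themselves held no sequence variant and 4 to 12 CpGs. In the bin of repeat 4 the high strains stood at 2.40 rpm (reads in the bin per 1000000 reads) and the low strains at 0.00791 rpm, which is 0.330% of the high level.

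A second set of sequences shows bins of single places to which the results return, with CpGs, the bases that the capture depends on, in capitals. All are on the plus strand of GRCm38.p6 (RefSeq).
longest run, chr1:171485101-171485250: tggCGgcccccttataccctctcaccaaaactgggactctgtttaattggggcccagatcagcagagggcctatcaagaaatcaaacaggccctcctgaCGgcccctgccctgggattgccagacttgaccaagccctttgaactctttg
Flg, chr3:93288151-93288300: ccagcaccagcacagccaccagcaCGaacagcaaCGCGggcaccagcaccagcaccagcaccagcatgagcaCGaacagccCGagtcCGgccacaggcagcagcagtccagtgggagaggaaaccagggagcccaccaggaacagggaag
Orai2-ps, chr16:59457751-59457900: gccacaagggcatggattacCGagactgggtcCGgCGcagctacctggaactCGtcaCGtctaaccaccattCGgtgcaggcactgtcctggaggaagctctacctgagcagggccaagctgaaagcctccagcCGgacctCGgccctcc
Adamtsl3, chr7:82557601-82557750: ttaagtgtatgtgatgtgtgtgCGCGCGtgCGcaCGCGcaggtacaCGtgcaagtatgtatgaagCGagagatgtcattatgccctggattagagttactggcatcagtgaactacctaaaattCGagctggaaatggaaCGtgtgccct

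These bins carried 2, 6, 8 and 10 CpGs in that order. The bin in the longest run was 14.7% soft-masked and that in Orai2-ps not at all, so that not every selected bin is annotated as repeated sequence. The variant counts deposited with the bins were 0, 1, 0 and 15.

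Reads were close to absent in the low strains. Levels are in rpm, the reads recovered for a bin per 1000000 of the effective number of reads in bins of that mouse. Over the selected bins the mean of the high strains had a median of 2.19 rpm (5th to 95th percentile 1.54 to 3.23), near the median of 2.0 rpm over all autosomal bins. The high level was partly fixed by the filter on deposited bins, which kept a bin only with more than 1 CPM (counts per 1000000 reads) in at least 2 libraries. Only 35 of the selected bins had at least 2 mice of low strains above 1 rpm, so that nearly all passed with the help of other libraries. The mean of the low strains had a median of 1.22% of the high level (5th to 95th percentile 0.321% to 4.76%). In single mice of low strains 60.4% of the values were at 0 reads, 23.4% at 1 read, 12.7% at 2 or 3 reads and 3.55% at 4 or more. Mice of high strains had a median of 38 reads per bin (5th to 95th percentile 19 to 67) and only 0.107% of their values were at 0. The depth bears on the first group, since 0 reads allow a level of up to 0.111 to 0.290 rpm, the limit of 3 reads in the deepest and the shallowest library, counting error only.

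The states belonged to strains more than to single mice. In 6168 bins (93.5%) each of the 60 inbred mice was in the state of its strain, in 176 bins 1 mouse was in the other state, and in 254 bins 2 or more were, of which 110 had 5 or more. Counted over mice, 1482 of 395880 values (0.374%) were in the other state. These counts favour agreement, since the strain mean includes the mouse compared. A mouse also counted as low only under 25% of the highest strain, so that one midway between the states counted as high. An inbred mouse had 1.76% to 14.6% of the bins between 25% and 75% of the high level (median 3.78%). A median of 18 mice per bin, and at most 62, had 0 reads. An inbred mouse had 0 reads in 1149 to 3302 of the 6598 bins (median 1995), and an F1 mouse in 0 to 18 of them.

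Each inbred strain was low in a large share of the bins, and the shares differed among strains. These shares come from the reads that chose the bins and depend on group size, since the rule counts mice and not strains. A loss shared by BXD73 (7 mice) and BXD73b (6 mice) met it more easily than one shared by strains with few mice, such as BXD9 (3 mice). BXD73b was low in 4919 bins (74.6%) and BXD73 in 4737 (71.8%), followed by BXD79 with 3898 (59.1%) and BXD9 with 3599 (54.5%). The lowest shares were those of BXD48a with 2759 bins (41.8%) and BXD48 with 2829 (42.9%). BXD65 (3078 bins, 46.7%), BXD65b (3113, 47.2%), BXD102 (3128, 47.4%) and BXD40 (3209, 48.6%) lay close together. A median of 5 strains was low per bin. The rule needs 10 mice without reads and no strain had more than 8 mice, so a bin with 1 low strain could be selected only with zeros in mice of other groups. The fewest low strains in a bin were 2 (136 bins), and 429 bins had 9 low strains.

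The bins just inside and just outside the limit of 10 mice resembled each other. The 501 bins with 10 mice at 0 reads had a low level with a median of 2.59% of the high level, and the 547 bins with 9 such mice, which were not selected, had 3.03%. Of these bins 17.2% and 18.5% held a variant, and the F1 mice stood at 0.542 and 0.551 of the high strains.

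The F1 mice stood near the middle between the states. Each of the 9 F1 mice had reads in 6567 bins (99.5%), and in 31 bins at least 1 had none. B6D2F1 was wholly without reads in 0 bins and D2B6F1 in 2. The mean of the F1 mice was a median of 0.530 of the mean of the high strains (5th to 95th percentile 0.438 to 0.633), and 6239 bins (94.6%) lay between 0.4 and 0.65. The same ratio over all autosomal bins had a median of 0.995 (0.617 to 1.15), with 5.57% between 0.4 and 0.65. By mouse the median ratio ran from 0.498 to 0.552, whereas single mice of high strains ran from 0.873 to 1.11. The ratio did not follow the number of low strains, since its median was between 0.511 and 0.538 for bins with 2 up to 9 of them. With the strains that had reads in each of their mice as the denominator, which includes low strains with stray reads, the median was 0.540 over the 6594 bins with such a strain, beside 0.999 over all autosomal bins.

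**Figure D2:**
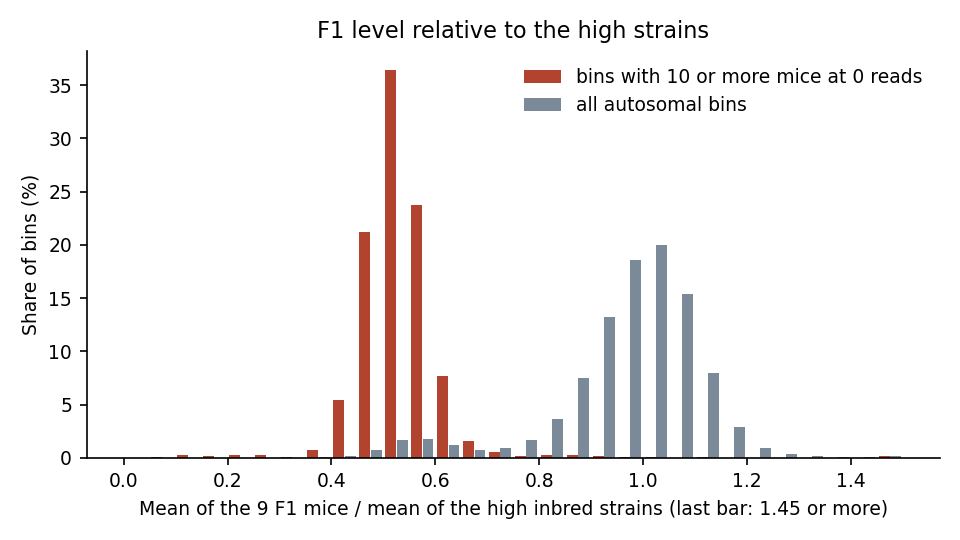
Mean of the 9 F1 mice divided by the mean of the high inbred strains of the bin (x axis) against the share of bins (y axis, %), for the selected bins and for all autosomal bins. The selected bins centre on 0.530 and all autosomal bins on 0.995.

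The 3292 runs were short. There were 1515 runs of 1 bin, 957 of 2, 488 of 3, 190 of 4 and 142 of 5 or more, and 13 runs held 10 bins or more. Runs of 2 or more bins contained 77.0% of the selected bins, and 1743 of the 1777 such runs (98.1%) had the same strains low throughout. The authors sheared the DNA to about 150 bp and extended reads to the bin length, so a fragment can count in 2 touching bins. Agreement between touching bins, within runs and at their ends, is therefore not independent. Reads summed over a run can count a fragment more than once. Most runs ended where deposited bins ended. The authors had removed bins without CpGs or with low mean counts, and then those not above 1 CPM in at least 2 libraries. Only 1603 of 6584 run ends (24.3%) had a deposited bin that touched them. In those touching bins the low strains still stood at a median of 5.21% of the high strains (quartiles 3.18% and 8.63%), and 97.4% of them were under 25%. The split thus reached past the limit of the rule at the ends that could be seen, and the true length of a stretch was not measured.

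The longest run lay on chromosome 1 at chr1:171484651-171488550, 26 touching bins in intergenic sequence, with Alyref2, a paralog of an mRNA export factor, as the nearest protein-coding gene. Summed over the run, BXD9 mice had 0 to 32 reads (median 11, n = 3), BXD48 mice 0 to 17 (median 4, n = 6), BXD48a mice 0 to 14 (median 7, n = 6) and BXD102 mice 2 to 16 (median 12, n = 5). The other 6 strains together had 708 to 2051 reads per mouse (median 1379), with no overlap with the low strains. BXD65 had the highest median level, 3.17 rpm (2.80 to 3.61), and BXD65b the lowest of the high strains, 2.90 rpm (2.53 to 3.34). The F1 mice had 630 to 1149 reads, and in rpm all lay below each mouse of the high strains, with 1.56 to 1.71 rpm in B6D2F1 and 1.65 to 1.89 rpm in D2B6F1. Their mean of 1.70 ± 0.0910 rpm (SD, n = 9) was 0.556 of that of the high strains, 3.05 ± 0.311 rpm. No variant was recorded in any of the 26 bins.

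**Figure D3:**
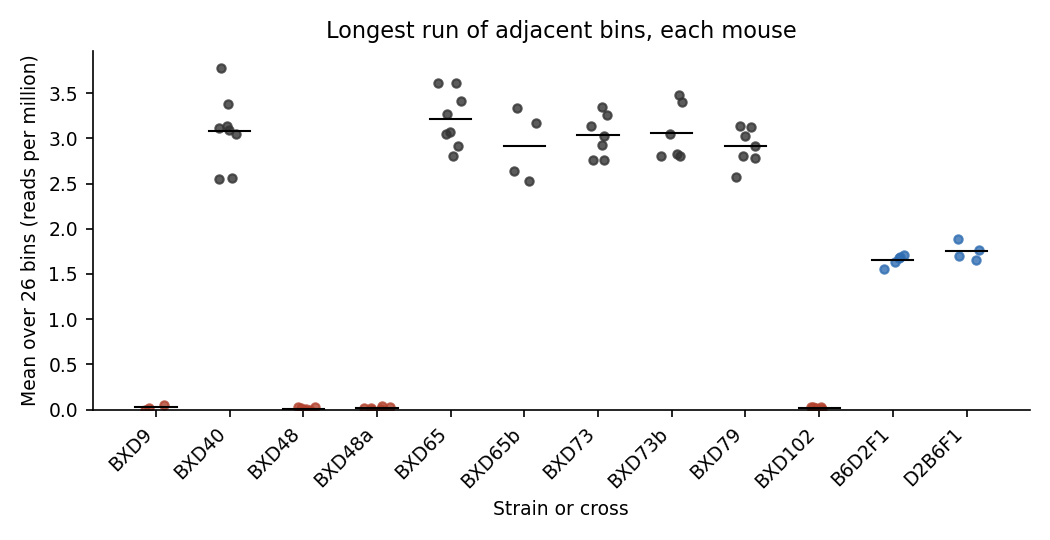
Mean level over the 26 bins of the longest run (y axis, reads per 1000000 reads) in each of the 69 mice by strain or cross (x axis), with lines at the group means. Mice of BXD9, BXD48, BXD48a and BXD102 lie near 0, the F1 mice between 1.56 and 1.89 and the other strains at 2.53 or more.

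A neighbouring run of 18 bins, chr1:171481501-171484200, near the cell adhesion gene F11r, was low in the same 4 strains and had 1 variant. Its low strains had 0 to 24 reads per mouse and its high strains 502 to 1388, and the F1 mice stood at 0.565 of the high strains. Within the 1 Mb from chr1:171000001, 60 of 243 deposited bins were selected, in 11 runs, all with this one strain pattern. The Mb also holds 4 selected bins in Cd84, which encodes a leukocyte receptor of the SLAM family.

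A pair of further long runs lay side by side on chromosome 12, chr12:88091851-88093950 and chr12:88094401-88096500, with 14 bins each, near Gm5955. In the first of them the low strains BXD40, BXD73, BXD73b, BXD79 and BXD102 had 0 to 19 reads per mouse and the other 5 strains 435 to 923. The F1 mice had 272 to 548 reads, at 0.497 of the high strains, and 0.491 in the second run. No variant was recorded in either. The other runs of 11 bins or more, with F1 ratios between 0.510 and 0.560 except for one at the start of chromosome 10, were near or in AB010352, Vmn2r69, Poteg, Akap1 and Gabrr3.

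The run in Gabrr3 shows a pseudogene inside a gene. Gabrr3 encodes a subunit of a GABA receptor, and its run of 12 bins, chr16:59457451-59459250, covered Orai2-ps, a pseudogene named for the calcium channel gene Orai2. Reads summed over the run were 0 to 12 per mouse in BXD48, BXD48a, BXD73 and BXD102 (24 mice, median 2) and 278 to 754 in the other strains (36 mice, median 499). The F1 mice had 241 to 517, at 0.560 of the high strains. The medians by low strain ran from 0 reads in BXD48 to 3 in BXD73 and BXD102, and no high strain was under a median of 415. BXD73 and BXD73b were in opposite states here, with 0 to 12 reads in the former and 441 to 655 in the latter. The sequence printed above for Orai2-ps holds 8 CpGs in this run.

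Exons of protein-coding genes were touched by 102 of the 6598 selected bins, in 64 runs. Exons were rarer here than elsewhere, since exons of any RefSeq gene held 7.82% of the selected bins and 29.4% of all autosomal bins. Flg, which encodes filaggrin of the outer skin, had 3 bins, chr3:93287851-93288300, low in BXD48, BXD48a and BXD102. There the low strains had 0 to 2 reads per mouse and the high strains 50 to 278, with the F1 mice at 63 to 147 and a ratio of 0.583. Clcn4, a chloride and proton exchanger, had 3 bins, chr7:7299451-7299900, low in BXD9, BXD48, BXD48a, BXD73 and BXD73b, with 0 to 6 reads in the low and 36 to 276 in the high strains. Its F1 ratio of 0.701 was above that of most bins. Among its high strains BXD79 and BXD102 had medians of 1.71 and 1.68 rpm (1.12 to 2.0 and 1.56 to 2.21 over mice). The medians of BXD40, BXD65 and BXD65b were 2.59 to 2.77 rpm, and their mice, at 0.760 to 4.60 rpm, overlapped with those of the former. Defa21, an alpha-defensin of the gut, had 2 bins, chr8:21026251-21026550, low in BXD73, BXD73b, BXD79 and BXD102. In 3 of those strains no mouse had a read in either bin, and in BXD73 the highest had 2, whereas the high strains had 22 to 90 and the F1 mice 18 to 38, at 0.452. Clec2g, a C-type lectin, with a run of 3 bins over exonic and intronic sequence at chr6:128970901-128971350, and Ankle1, an endonuclease, with 2 exonic bins at chr8:71410201-71410500, had low levels of 0.272% and 0.203% of the high level and F1 ratios of 0.568 and 0.543. The other exonic runs that were named lay in Gal3st2c, Ildr2, Rpl37rt, Ppp1ccb and predicted genes. Among these were runs over exons and introns on chromosome 12, with 5 bins each in Gm3973, Gm9257 and Gm38702 and 4 in Gm3993. These 4 genes shared the strain pattern that was the most frequent of all, described next.

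Runs close together had the same strains low. Of 10 strains with 2 to 9 of them low there are 1012 possible patterns, and 194 occurred. Neighbouring runs under 1 kb apart shared the pattern in 435 pairs (93.3%), and at 100 kb to 1 Mb still in 89.9% of 1125 pairs. The share was 50.6% of 470 pairs at 1 to 10 Mb and 0 of 23 pairs beyond 10 Mb, beside 0.622% for pairs of runs on different chromosomes. The most frequent pattern, low in BXD9, BXD40, BXD73, BXD73b and BXD102, had 470 bins, of which 459 lay on chromosome 12 between 10154101 and 25857750. The pattern high only in BXD102 had 304 bins, 250 of them on chromosome 14 between 40546651 and 56195400. The pattern high in BXD9, BXD40 and BXD102 had 295 bins, 160 of them on chromosome 10 between 3109501 and 18888150. Others were confined to 1 chromosome among the selected bins, such as the 193 bins low in BXD9, BXD40, BXD65, BXD65b, BXD73 and BXD73b on chromosome 6 (127071001 to 139830750). The 8 most frequent patterns together held 2080 bins.

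The bins were unevenly spread. Chromosome 14 had the highest share of its bins selected (5.17%), followed by chromosome 12 (4.88%), and chromosome 15 was among the lowest (0.715%). Of 2411 windows of 1 Mb with a deposited bin, 960 held a selected bin, and the 63 windows with 20 or more held 2172. The densest by number was chr12:19000001-20000000, where 140 of 287 bins (48.8%) were selected, in 49 runs, all 140 with the one pattern named first, none with a variant, and 62.9% of them masked over at least 50% of their length. By share, among the 2394 windows with at least 20 deposited bins, it was chr4:112000001-113000000, with 21 of 24 bins (87.5%), followed by the next window, chr4:113000001-114000000, with 20 of 30 (66.7%). The window chr6:132000001-133000000 had 52 of 92 bins (56.5%). There and in the window on chromosome 12 the F1 ratio had a median of 0.519.

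Read levels of bins near the runs often split the strains likewise. The genotypes of the strains at the variants were not read. Nearby bins were deposited bins that held a variant, were not selected, and lay within 1000000 bp. For the 22 bins in which each group was wholly with or without reads, a median of 68.0% of the nearby bins had strain means that did not overlap between the low and the high strains, against 4.05% of such bins on other chromosomes. Nearby bins without a variant, added after seeing the data, split likewise in a median of 39.3%, against 2.50% on other chromosomes. For nearby bins with a variant the share was 78.5% within 250000 bp and 44.6% within 5000000 bp. For 3093 runs taken by low and high state, a grouping added after seeing the data, the shares were 60.0%, 54.1% and 43.2% within 250000, 1000000 and 5000000 bp, against 2.67% on other chromosomes, and without a variant 27.7% within 1000000 bp, against 1.68%. Of the nearby bins that split likewise around these runs, 85.9% within 1000000 bp were lower in the low strains. Pairs named as sub-strains mostly shared the state. BXD65 and BXD65b had the same state in 98.2% of the bins, BXD48 and BXD48a in 93.2% and BXD73 and BXD73b in 90.1%, whereas the other 42 pairs ran from 32.8% to 70.3% (median 48.0%). BXD48 alone was low in 260 bins and BXD48a alone in 190, and 237 of these lay on chromosome 7. BXD73 alone was low in 234 and BXD73b alone in 416, with 330 of these on chromosome 7.

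The selected bins were mostly repeated sequence. The soft-masked share of a bin had a median of 97.3%, against 13.3% for all autosomal bins, and 76.2% were masked over at least 50% of their length, against 28.9%. Of all masked autosomal bins 4.91% were selected, and of the others 0.622%. Stretches of 31 bases that occur more than once in the genome filled a median of 78.3% of a selected bin and 0% of all bins. The most copied stretch in a bin had a median of 395 copies, against 1. Within the masked bins, however, selected and all bins had the same median (1010 copies). Only 312 selected bins (4.73%, against 62.6% of all) had no repeated stretch, and in these the F1 ratio was 0.515 and the low level 0.930% of the high, near the 0.533 and 1.35% of the 5221 bins with at least 50% repeated stretches. The CpG number (median 6, against 5) and the GC content (52.0%, against 52.7%) were close to those of all bins.

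Most selected bins lay outside genes. Intergenic sequence held 66.4% of them (35.7% of all autosomal bins), introns 24.0% (33.5%), exons of any RefSeq gene 7.82% (29.4%) and promoters 1.77% (1.44%). Within masked bins these shares were closer, with 72.8% (68.9%) intergenic, 23.5% (27.3%) in introns and 2.09% (2.48%) in exons. Within the others 46.0% (22.1%) were intergenic and 26.2% (40.4%) in exons. Bins in protein-coding genes were 18.8% (55.1% of all), in 437 genes, led by Immp2l, a mitochondrial peptidase, with 21 bins, Etl4 with 19 and the predicted gene Gm7247 with 17. Erbb4, a receptor tyrosine kinase, had 14. Pseudogenes held 8.41% of the selected bins and 3.21% of all. Among bins masked over less than 50% of their length the shares were 25.6% and 3.56%. Gm29716 with 26 bins, Gm5182 with 16 and Vmn2r-ps16 with 15 held the most. Pseudogenes named for an ordinary gene included Orai2-ps with 12 bins, Nsa2-ps1 with 8 and Hdac1-ps, Kansl2-ps and Ldhb-ps with 7 each.

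Among the gene families looked up by symbol, the Skint family had the highest share. Skint genes encode immunoglobulin-like proteins of skin and thymus, and 18 of their 26 deposited bins (69.2%) were selected, in Skint4, Skint5, Skint6, Skint9 and Skint11. All 18 were high in BXD48a and low in the other 9 strains, so that BXD48 and BXD48a were in opposite states. In the 3 bins of Skint6 at chr4:113206201-113206650 the BXD48a mice had 100 to 225 reads (median 124), all other inbred mice 0 to 5, and the F1 mice 55 to 113. Sirpb1a and Sirpb1c, genes of paired receptors on myeloid cells, had 4 of 9 bins selected (44.4%), low in BXD48, BXD48a and BXD102. The Klr family of natural killer cell receptors had 5 of 29 bins (17.2%), in Klra17 and Klra2, all low in BXD9, BXD40, BXD65, BXD65b, BXD73 and BXD73b. In the 2 bins of Klra17 at chr6:129849901-129850200 the low strains had 0 to 3 reads, the high strains 59 to 115 and the F1 mice 34 to 77.

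Families with a role in the liver were read against the 1.86% of all autosomal bins that were selected. Cyp2c, Cyp2d, Cyp3a and Cyp4a, the drug and lipid metabolising cytochromes, had 2 of 103 bins selected (1.94%), near that share, in Cyp2c38 and Cyp2c39 and low in BXD48, BXD48a and BXD102. Serpina and Serpinb had 2 of 36 (5.56%), above it but from 2 bins, both in Serpina1e, one of the alpha-1-antitrypsin genes, where the low strains had 0 to 2 reads and the high strains 35 to 114. Mup, the major urinary proteins, had 1 of 50, also near that share and only in a pseudogene, and Ugt (22 bins) and Sult (105 bins) had none. Nor did H2 (43 bins), Ly6 (23), Ceacam and Psg (66), Pira and Lilr (3) and Raet (1). Defensins had 3 of 39 (7.69%), interferon-induced genes 2 of 34 (5.88%, both in Ifi205), and odorant and pheromone receptors 27 of 768 (3.52%), 15 of them in Vmn2r-ps16. Nlrp and Naip had 5 of 165 (3.03%), Trim 7 of 506 (1.38%), Zfp 59 of 3500 (1.69%) and predicted Gm genes 865 of 33350 (2.59%). Families with few deposited bins rest on 1 or a few runs each.

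A sequence variant was recorded in 900 of the selected bins (13.6%, 95% Wilson interval 12.8 to 14.5, counting error only and with touching bins not independent), against 17.4% of all autosomal bins. The order turned when each run was counted once, since 22.8% of the runs held a variant in at least 1 of their bins, but a run can be longer than a bin, so that this share and the 17.4% are of different lengths. Among masked bins the shares were 10.8% and 15.9%, and among the others the order was the reverse, 22.7% and 17.9%. Bins with 5 or more variants made up 2.32% of the selected bins and 1.37% of all. Among masked bins these shares were alike, 1.41% and 1.43%, and among the others 5.23% and 1.34%. Of all bins without a variant 1.95% were selected, of those with 1 variant 1.14%, of those with 2 to 4 1.56% and of those with 5 or more 3.16%. The share was lower in longer runs, with 19.4% in runs of 1 bin, 15.2% for 2, 12.1% for 3 or 4 and 5.08% for 5 or more. The high level was 1.93, 2.11, 2.37 and 2.64 rpm in the same order. The 312 bins without a repeated stretch had a variant in 47.8%. The share over all autosomal bins without a repeated stretch was not counted, so this value has no background beside it. The most variants in a selected bin were 15, at chr7:82557601-82557750 in an intron of Adamtsl3, an extracellular matrix gene, whose low strains were at 2.16% of the high strains and whose F1 mice were at 0.475. A further pair of bins at chr8:69239851-69240150, in Gm7684 near Zfp930, had 20 variants together.

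In 94 bins at 42 places the F1 mice reached at least 0.75 of the high strains. The largest place was in an intron of Antxr2, a receptor for anthrax toxin, with 9 bins in chr5:98006101-98008200. The high strains there were unlike each other: BXD9 had 661 to 835 reads, BXD102 404 to 495, BXD40 237 to 536 and BXD79 193 to 314. In rpm, BXD9 had a median of 4.22 and BXD79 of 1.67, and no mouse of one overlapped the other. B6D2F1 and D2B6F1, with medians of 2.20 and 2.38 rpm, lay between them. A similar order was seen at chr14:53935501-53936400 in the T cell receptor locus Tcra, where BXD102 had a median of 2.94 rpm, BXD40, BXD73 and BXD73b of 1.11 to 1.19 rpm, and the crosses of 2.54 and 2.36 rpm. A high F1 ratio therefore came with unequal high strains at both places.

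In 65 bins at 17 places the F1 mice stood under 0.3 of the high strains. Most were at the start of chromosome 10, where 37 bins in chr10:3109501-3117150 had an F1 ratio of 0.219. Mice of one strain varied widely there: BXD40 had 685 to 13338 reads, BXD9 1939 to 7224, BXD102 969 to 2862, B6D2F1 690 to 1694 and D2B6F1 174 to 3623. The other strains had at most 276 reads, so that the inbred strains still split without overlap in reads. The spread within BXD40 thus exceeded the differences among the 3 high strains. The next largest place was in Snhg14, the long RNA of an imprinted region on chromosome 7, where 8 bins in chr7:59753851-59902500 had an F1 ratio of 0.234. There BXD73 had 39 to 889 reads, BXD40 55 to 881 and BXD48 25 to 590, again with a wide spread within each strain. Sprr2a2, a gene of the skin barrier, had 2 such bins at chr3:92250751-92251050, with 0 to 122 reads in BXD40, 0 to 133 in BXD65b and 0 to 28 in the F1 mice.

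At other places single mice left the state of their strain over long stretches. In BXD79, on CD, 59 selected bins in chr8:80972251-86175450 held a median of 0% of the high level in mouse 2, which had 0 reads in 50 of them. Mice 1, 3, 4, 5 and 7 had 53.2%, 51.9%, 50.8%, 54.0% and 51.7% of the high level, and mouse 6 had 108%. BXD79 counted as a high strain in these bins, so its own mice entered the high level, which raises these percentages. Mice are numbered within strain and diet in the order of their records. The 7 mice of BXD79 thus fell on 3 levels over the same bins, near 0, near the F1 ratio and near the high level. In BXD73b, the median over 14 bins in chr1:78955201-89102250 was 0% in CD mouse 1 and 2.37% in HFD mouse 1. The other 4 mice had medians of 90.8% to 116%. CD mouse 1 had 0 reads in 11 of the 14 bins but up to 87.1% of the high level, and HFD mouse 1 had 0 reads in 5. The same pair of mice had medians of 45.2% to 51.3% of the high level in stretches from chr1:91130701 to 101526450. Mouse 1 of BXD102 had a median of 48.6% over 34 bins in chr4:142558501-144855150, where the other mice had 103% to 107%. Mouse 1 of BXD9 had a median of 58.0% over 22 bins in chr2:142311001-144751350, where the others had 100% to 103%.

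**Figure D4:**
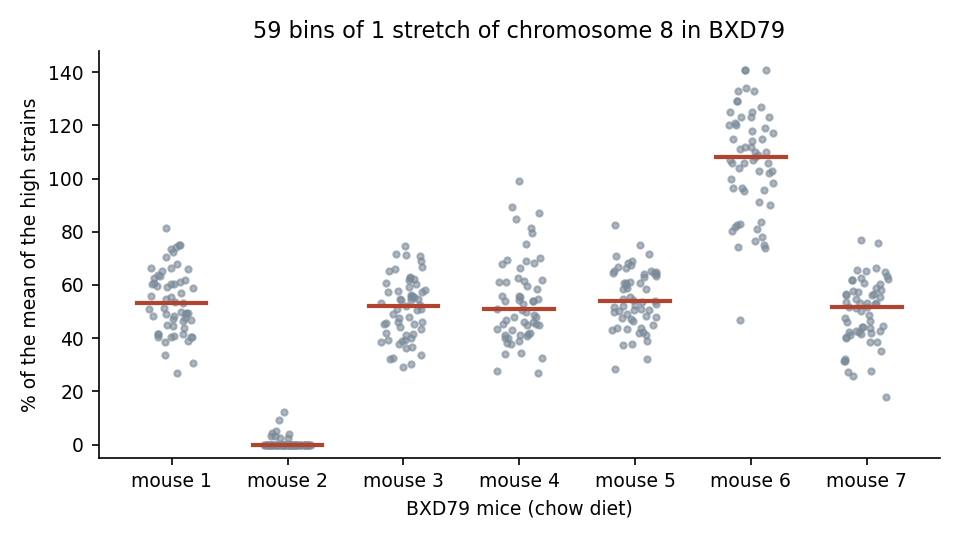
Level of each of 59 selected bins on chromosome 8 in the 7 BXD79 mice (x axis), as a percentage of the mean of the high strains of the bin (y axis); each point is 1 bin and lines are medians. Mouse 2 lies at 0, mouse 6 at 108% and the other mice at 50.8% to 54.0%. BXD79 is among the high strains, so that its own mice enter the mean.

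Diet was not used to select the bins and was tested within strain, in 14 HFD and 19 CD mice of the 5 strains with both diets. By limma with Benjamini-Hochberg adjustment, 0 of the 6598 selected bins passed an adjusted p of 0.05, as did 0 of all 368300 bins (0%). At an unadjusted p of 0.05 by limma, 180 selected bins (2.73%) and 17593 of all bins (4.78%) passed, and edgeR also called 0 at the adjusted threshold. The selected bin with the smallest p, chr1:65815501-65815650 near the lens crystallin gene Crygf, had 0 to 56 reads in HFD and 0 to 50 in CD mice. Its log2 difference within strain was 0.51 (SE 0.13, adjusted p 0.999 by limma).

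The crosses B6D2F1 and D2B6F1 carry the same autosomes. Which cross a mouse came from was not used by the rule, although the 9 F1 mice were among the 69. The filter on deposited bins was not free of the cross where 1 cross alone was high, as given below for the bins called. Without B6D2F1 6595 bins would be selected and without D2B6F1 6596. Between them limma, with sex as a covariate, called 4 of the 6598 selected bins (0.0606%) and 9 of all 368300 bins (0.00244%), and edgeR called 4 and 9 as well. In females only, 13 selected bins and 339 of all bins (0.0920%) passed by limma, 8 of the 13 higher and 5 lower in B6D2F1 with the 4 among them, and leaving out either male, B6D2F1 mouse 5 or D2B6F1 mouse 1, also gave 13. These are not separate checks, since the sex term then fits the 1 male left exactly and the difference rests on the same females. At an unadjusted p of 0.05, 227 selected bins (3.44%) and 22075 of all bins (5.99%) passed. The 4 bins lie together on chromosome 1 in chr1:24612601-24613350, at Gm10222, and all were lower in B6D2F1. Their 31-base stretches occur in the mitochondrial genome for 100%, 100%, 74.2% and 100% of each bin, on its minus strand between positions 9228 and 9976. They thus lie in a nuclear copy of mitochondrial DNA. Mitochondria are inherited from the mother, who was of a different parental strain in each cross. The bin with 74.2% differs from the mitochondrial genome at 1 base, given as A67G with the mitochondrial base first and positions counted from 1 at the left end of the bin on the plus strand of chromosome 1. It is shown with that base in capitals, since it is the bin among the 4 in which the copies can be told apart in the reference.
mitochondrial copy, chr1:24613051-24613200, plus strand: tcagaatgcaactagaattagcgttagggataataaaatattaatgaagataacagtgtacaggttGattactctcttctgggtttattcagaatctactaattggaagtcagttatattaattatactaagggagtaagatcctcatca

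Summed over the 4 bins, the 5 B6D2F1 mice had 1, 8, 9, 15 and 17 reads and the 4 D2B6F1 mice had 127, 147, 265 and 442. The crosses did not overlap. BXD9 mice had 43 to 52 reads, BXD40 mice 15 to 41 and BXD79 mice 17 to 35, and mice of the other strains at most 4. No inbred mouse reached the lowest D2B6F1 mouse. As a mean over the 4 bins, D2B6F1 mice had 1.63 to 6.19 rpm, B6D2F1 mice 0.0176 to 0.259 rpm and inbred mice at most 0.719 rpm. The filter on deposited bins, more than 1 CPM in at least 2 libraries, was thus met largely through D2B6F1. The direction of these 4 differences was therefore partly fixed by the filter. The log2 differences (B6D2F1 minus D2B6F1) were -4.44 (SE 0.42, adjusted p 7.82e-08 by limma), -3.83 (SE 0.34, 5.07e-08), -3.58 (SE 0.33, 7.82e-08) and -3.08 (SE 0.37, 3.89e-05) from left to right. They are on the log2(RPKM) scale with a prior count, which understates the difference where reads are few.

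The mitochondrial genome itself differed in the opposite direction at the matching places. Of its 75 bins limma called 3, chrM:9301-9450, chrM:9451-9600 and chrM:9751-9900, with log2 differences of 3.44, 3.66 and 3.28. In single bins the D2B6F1 mice had 0 to 3 reads, the B6D2F1 mice 7 to 85 and the inbred mice 1 to 108. Of 7 autosomal bins with at least 50% of their stretches in the mitochondrial genome, these 4 were called and the other 3, at chr12:97061401-97061850, were not selected and not called. How reads were shared between the nuclear and the mitochondrial copy was not tested. The fifth selected bin by p, chr6:28929151-28929300 in an intron of Snd1, had 1 to 26 reads in B6D2F1 and 17 to 37 in D2B6F1, a log2 difference of -1.44 (SE 0.37, adjusted p 0.539 by limma).

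**Figure D5:**
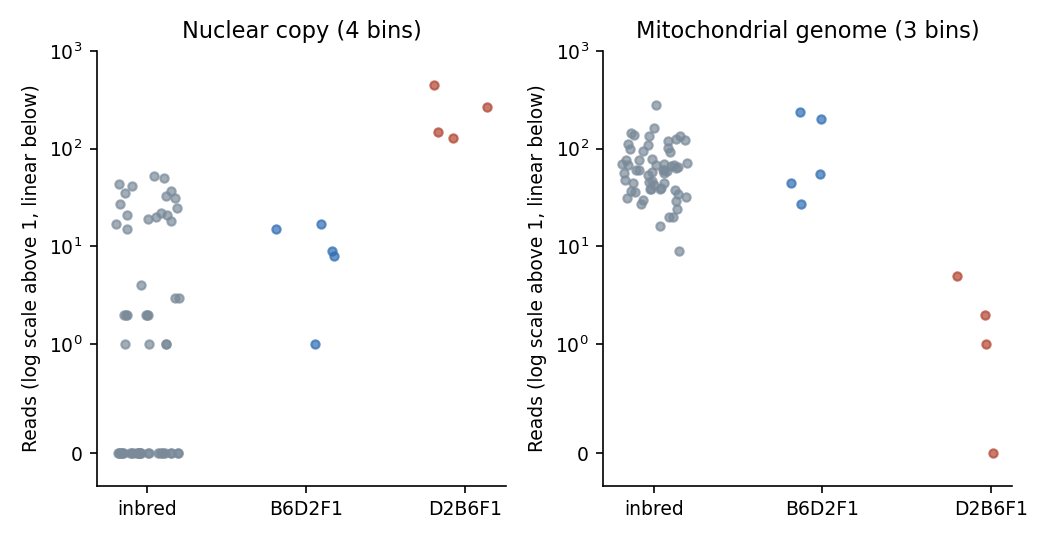
Reads per mouse (y axis, logarithmic above 1 and linear below) in the 60 inbred, 5 B6D2F1 and 4 D2B6F1 mice, summed over the 4 bins of the nuclear copy on chromosome 1 (left) and over 3 bins of the mitochondrial genome (right). D2B6F1 mice are highest on the left, with 127 to 442 reads, and lowest on the right.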

How the data were processed

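MBD-seq libraries of liver DNA from 70 mice were used, 69 of them in all counts. As the authors describe, paired reads were checked with FastQC 0.11.8, aligned to mm10 with Bowtie2 2.3.4.3, assessed with SAMtools 1.9 and SAMstat and counted in 150 bp bins with MEDIPS, and edgeR gave log2 RPKM. Bins without CpGs or with low means were removed by them, and then those without more than 1 CPM in at least 2 libraries (on the recovered reads all 368300 bins meet this). The deposited values are log2 RPKM, and beside them the authors deposited counts of CpGs and of sequence variants for each bin, and its GC content as a fraction, used here as a percentage. No prior count was stated, and 2 was inferred. The lowest value, -0.41, is that of a bin with no read. From the deposited log2 values the reads were recovered, 100% of them whole within 0.05 reads. A library had 11028723 to 25828399 reads in its bins (median over mice 17442567), and the bin in the middle of a library had 21 to 53.

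The bins and all lists were chosen with earlier results of these data known. A bin was selected with at least 10 of 69 mice at 0 reads. Soft masking, genes, 31-base copies and sequences came from GRCm38.p6 (RefSeq), the same assembly as mm10. Reads with a mapping quality under 10 had been removed by the authors, and its part in repeated bins was not tested. Runs were named by fixed rules: the 10 longest, up to 20 with exons of protein-coding genes, the 5 longest with an F1 mean of at least 0.75 of the strains with reads in each mouse (316 runs met this, mostly through low strains with stray reads), the 5 longest with no reads in any F1 mouse (0 runs), the 5 bins with the most variants and the 5 smallest p per comparison. Places and mice outside these rules were chosen after their values were seen.

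Diet (with strain as covariate) and cross (with sex) were tested with limma 3.58.1 in R 4.3.3 on the log2 RPKM of all 368300 bins, with trend and two-sided, with Benjamini-Hochberg adjustment and a threshold of 0.05, and all 6598 selected bins were among those tested. Since values are not counts, edgeR 4.0.16 on the recovered reads was an alternative, for diet also with size factors of DESeq2 1.42.0. Descriptions were computed in Python 3.11.15 with pandas 2.3.3, numpy 2.4.6 and pysam 0.24.0. Mice of one strain were taken as replicates. Further alternatives were other limits on mice and reads, other prior counts, a block of strain and age label, and leaving out each mouse or strain.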

Additional observations from a re-analysis of the deposited data

Results flagged for a closer look

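Groups of 4 to 10 mice were screened for 1 mouse far from the others, in 78 groups, and 5 were found, where chance alone gives about 1 in 20 groups. In BXD48a, HFD mouse 2 had 0 reads in 1149 of the selected bins and the other 5 mice in 1738 to 1900. Its library was also the deepest of the strain, with 21406589 reads in bins, against 15043798 to 18359864 in the other 5. In D2B6F1, mouse 3 had a median ratio of 0.552 to the high strains and the others 0.521 to 0.524. In the run at chr5:109905751 mouse 2 of BXD65b had 2.29 rpm and the others 2.84 to 2.89. In the run at chr12:88091851 mouse 4 of D2B6F1 had 1.49 rpm and the others 1.35 to 1.36. In the run at chr10:3112951, at the start of chromosome 10, mouse 1 of D2B6F1 had 4.96 rpm and the others 0.280 to 0.841, at a place where mice of the inbred strains also varied widely.

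Signals appeared outside the autosomes and the 69 mice too. On chromosome X 136 of 13986 bins (0.972%) had 0 reads in at least 10 mice. In the 3 mitochondrial bins called between the crosses the highest B6D2F1 mouse had 85 reads in 1 bin, against at most 3 in D2B6F1. The BXD65 mouse on HFD that the authors set aside was in the state of BXD73b in 67.2% of the selected bins, in that of BXD73 in 66.6% and in that of BXD65, its labelled strain, in 57.8%. The other inbred mice were in the state of their own strain, whose mean includes them, in 98.7% to 99.9%, and pairs of strains not named as sub-strains reached 70.3%, so that its states matched no strain here. BXD73b and BXD73 were also the strains low in the most bins. It had 60.7% of the bins under 25% of the high level, 9.88% between 25% and 75% and 29.4% above, where the other inbred mice had 1.76% to 14.6% between (median 3.78%). It had 0 reads in 2700 bins.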

How the results depend on the processing

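With 0 or 1 read counted as none, 10305 bins were selected and 995 had each group wholly with or without reads, in place of 6598 and 22. Leaving out each mouse gave 6457 to 6598 bins and 22 to 28 bins, and leaving out each strain 5714 to 6596. The share with a variant was 22.8% with runs counted once, above and not below that of all bins. The share of nearby variant bins that split the strains likewise was 44.6% within 5000000 bp, and 43.2% for runs by state, and it was 39.3% for nearby bins without a variant, the last 2 chosen after seeing the data. The ratio of F1 mice to strains with reads stayed within 0.537 to 0.544 when each F1 mouse was left out.

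Diet gave 0 selected bins under its 9 alternatives and without any 1 mouse. The cross gave 4 under its other alternatives but 13 with females only, and 4 to 13 when each mouse was left out. The 13 came without B6D2F1 mouse 5 or D2B6F1 mouse 1, the males, where the sex term fits the male left exactly and the fit rests on the females. No replicate numbers pair the mice in the labels. With strain and age label as a block, chosen after seeing the data, 5 of 24 blocks (12 of 33 mice) held both diets, and 0 selected bins and 0 of all bins passed by limma (195 and 15835 at an unadjusted p of 0.05). Mice came as separate animals, but depth limits what 0 reads mean to about 3 reads, and the effect of repeated sequence on where reads were placed was not tested.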
